A study of Drosophila melanogaster with 4 samples.

Results

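Protein synthesis was followed through 28 genes named on a spotted Drosophila melanogaster array, covering ribosomal proteins, translation factors and the enzymes that charge tRNAs. A gene was included when the platform annotation gave its spot exactly 1 symbol and that symbol began with RpL, RpS, mRpL, mRpS, eIF, eEF or eRF. A symbol ending in RS or RS-m after an amino acid name, the form used for tRNA synthetases, was also taken. The 28 were part of 2377 genes with 1 symbol, on 76 of 16896 spots. They comprised 6 cytoplasmic ribosomal proteins, 3 mitochondrial ribosomal proteins, 10 initiation factors, 1 release factor, 6 cytoplasmic synthetases and 2 mitochondrial synthetases, and no elongation factor was among them. RefSeq's Release 6 gene table lists 254 protein-coding genes under the same rule, among them 92 cytoplasmic and 73 mitochondrial ribosomal proteins. The 28 genes are therefore a small share of the machinery. The rule used symbols alone and no measured value.

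The arrays compared RNA of adult Oregon-R females, 10 to 20 days after emergence, sprayed with 2 mL of an ethyl acetate extract of black pepper (Piper nigrum) seed at 0.9 mg/mL in 99% ethanol, with RNA of females given 2 mL of 99% ethanol only. The spray was topical, from a Potter's tower, and flies were taken 4 h later. There were 2 replicate pools of about 240 females, numbered 1 and 3 in the labels, and each was hybridised on 2 arrays with the dyes exchanged. An array is named below by its pool and by the dye that carried the extract RNA, and the 2 arrays of a pool count as 1 replicate (n = 2).

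Values are the deposited log ratios, taken as log2 with extract (channel 2) over ethanol (channel 1). Neither the base nor the numerator was given in the sources used here, so a sign below is that of the deposited ratio and does not settle whether a transcript was higher or lower with extract. Fold sizes rest on the assumed base. The 2 arrays with extract in Cy3 run the same way in either reading, and so do the 2 with extract in Cy5, whereas the agreement of the orientations depends on the reading. If ratios were deposited by dye, the value with the Cy5 arrays turned in sign would hold the response, and it is given as the turned value. Ranks within a class or among the 28 genes are of the ratios as deposited. Errors are limma standard errors over the 2 pools. RNA came from whole flies, where fewer cells of a type and less RNA per cell cannot be told apart.

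Cytoplasmic ribosomes are built from RNA and proteins of a small (RpS) and a large (RpL) subunit and translate nuclear messages, while mitochondria carry a separate set (mRpS, mRpL) for the few proteins their own genome encodes. Initiation factors load the first tRNA and the message onto the small subunit, elongation factors drive the cycle, and a release factor ends it at a stop codon. tRNA synthetases join each amino acid to its tRNA. In adult females the ovary, which makes eggs rich in ribosomes, is a major site of ribosome production.

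None of the 28 genes passed the test (limma, Benjamini-Hochberg over 13607 features at 0.05), and their adjusted p-values ran from 0.692 to 0.997. Over all features 6 passed, or 0.0441%, and 1 of them was a gene with 1 symbol (0.0421% of 2377). At an unadjusted limma p under 0.05 the count was also 0 of 28, where the background was 7.34% of all features and 3.83% of genes with 1 symbol. That count was 1 with the replicate block, where 1522 of 13607 features had such a p. It was 2 with named genes fitted alone (201 of 2377 genes) and 1 without the Cy3 array of replicate 3 (835 of 13607 features). As deposited, the lowest unadjusted p among the 28 was 0.0595, for RpL32. With the Cy5 arrays turned, 0 of 28 passed, against 0% of all features, and 0 of 28 had an unadjusted limma p under 0.05, against 4.75% of all features and 2.1% of genes with 1 symbol. With 2 pools an exact two-sided sign test cannot give a p under 0.5, so the p-values lean on limma's pooling of variance over the whole table.

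Fold sizes here hold only if the ratios are log2, a base that the sources used here did not give. Of the 28 genes, 28 stayed within 2-fold on each of the 4 arrays, with the highest single value at 0.95 (mRpL54, replicate 1 Cy5) and the lowest at -0.91 (RpS10a, on that array too). This held for 2304 of the 2377 genes with 1 symbol (96.9%). The 95% interval of limma lay within 2-fold for 28 of 28 genes and within 1.5-fold for 23, and its widest bound, for RpS15Ab, was a log2 ratio of 0.72, or 1.64-fold. These counts were not made over all genes, so they do not set the 28 apart. The width comes largely from the pooled variance. Standard errors of the 28 ran from 0.149 to 0.194, where the median over all features was 0.153. A miss of the threshold therefore bounds these ratios under the fitted variance and does not show that a gene had no change.

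**Figure D1:**
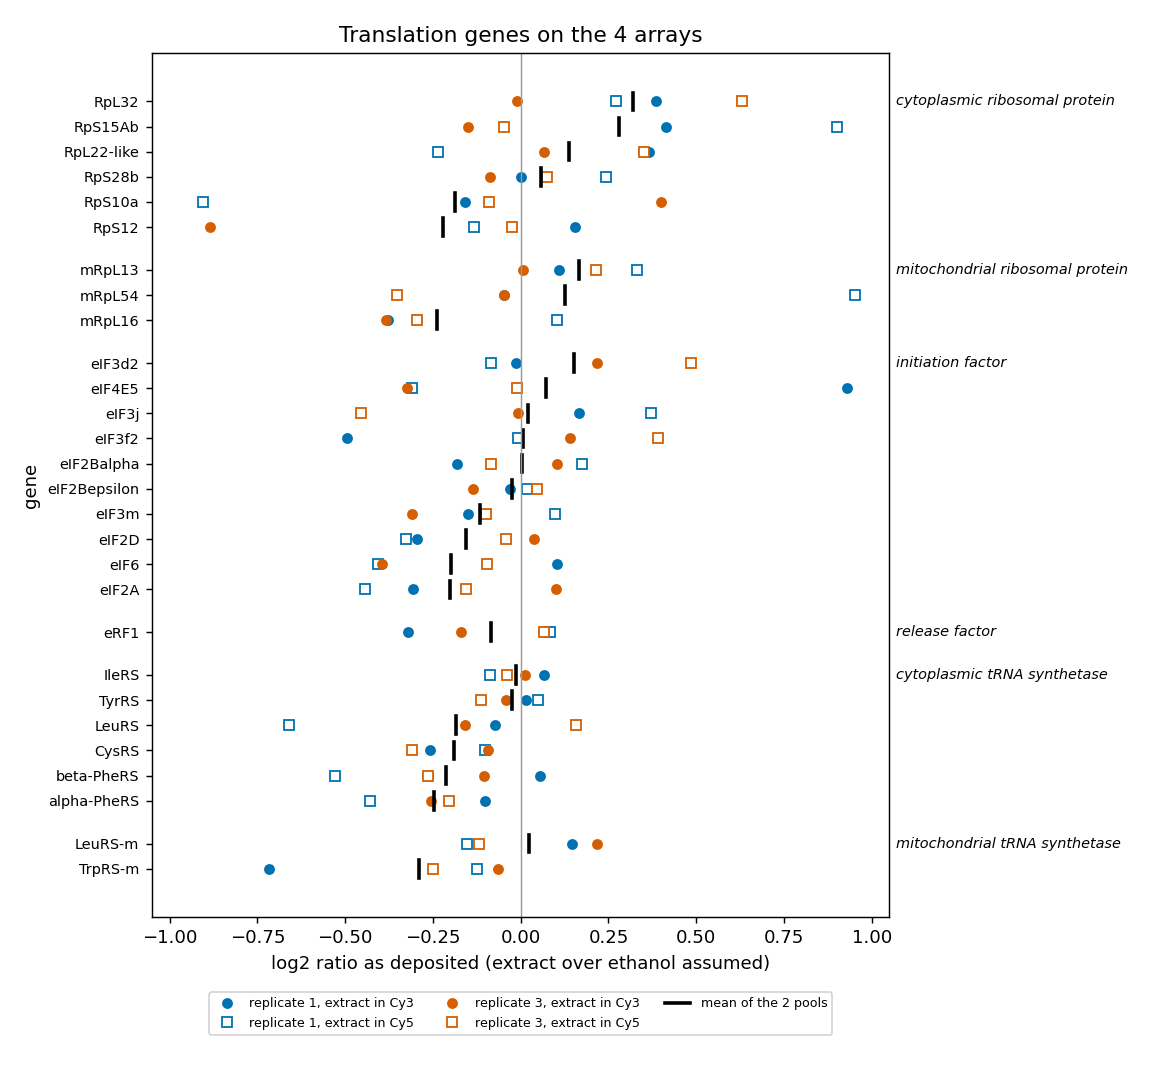
Log2 ratio as deposited (x axis) of each of the 28 genes (y axis) on the 4 arrays. Blue marks are replicate 1 and orange marks replicate 3, filled circles have the extract in Cy3 and open squares in Cy5, and the black bar is the mean of the 2 pools. Most genes have arrays on both sides of 0, and 4 genes have all 4 on 1 side: mRpL13 above and CysRS, alpha-PheRS and TrpRS-m below.

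Of the 28 means, 12 lay above 0 and 16 below, with a median log2 ratio of -0.024, against 0.0058 over the 2377 genes; turned, 14 of 28 lay above 0, with a median of -0.017. The pools gave the same sign for 16 genes (57.1%), close to the 53.6% of genes with 1 symbol. A single sign on 4 of 4 arrays was held by 4 genes (14.3%), where the background was 16.8%: mRpL13 lay above 0 throughout, as did 8.83% of genes with 1 symbol, and 3 others lay below throughout, as did 7.99%. A single sign was held in the turned reading by eIF2Bepsilon, eRF1, IleRS and LeuRS-m (4 of 28, 14.3%, against 12.5%). Both shares are near the background. The median size of the ratio, regardless of sign, was 0.15 for the 28 genes and 0.10 for the 2377.

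The cytoplasmic ribosomal proteins lay on both sides of 0, with 4 of 6 above and a median log2 ratio of 0.098 as deposited, and 2 of 6 above and -0.12 turned. RpL32 (CG7939), a large-subunit protein better known as rp49 and a common reference gene in fly expression work, had the highest mean of all 28 genes as deposited (turned, RpS10a had, at 0.31). It stood at 0.39 and 0.27 on the Cy3 and Cy5 arrays of replicate 1, and at -0.0090 and 0.63 on those of replicate 3. Both pools were therefore alike, at 0.33 and 0.31, although 1 of the 4 arrays lay next to 0. The mean was 0.32 ± 0.15 (limma, adjusted p = 0.692; n = 2), rank 89 of the 2377 genes from the top, and the turned value was -0.13. Without the Cy5 array of replicate 3 the mean was 0.16, and without the Cy3 array of that pool 0.48.

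RpS12 (CG11271), a small-subunit protein known in flies for its part in cell competition, was the lowest of this class as deposited; turned, at -0.14, it stood just above RpS15Ab, at -0.15. It stood at 0.16 and -0.13 in replicate 1, and at -0.88 and -0.024 in replicate 3, each in the order Cy3, Cy5. The mean of -0.22 ± 0.17 (limma, adjusted p = 0.797; n = 2) rests on the Cy3 array of replicate 3, without which it was -0.0059. The other 3 arrays lay on either side of 0.

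The other 4 members of this class, RpS15Ab, RpL22-like, RpS28b and RpS10a, each have a named relative in the genome (RpS15Aa, RpL22, RpS28a with RpS28-like, and RpS10b). None of these relatives was among the genes with 1 symbol, and spots annotated to several genes were not searched for them. A spotted probe can bind both transcripts of a close duplicate, and its sequence was not used here, so these values may be shared with the relative. RpS15Ab stood at 0.41 and 0.90 in replicate 1 but at -0.15 and -0.048 in replicate 3. The pools thus differed by more than the mean of 0.28 ± 0.19.

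RpS10a showed the reverse order of pools, at -0.53 in replicate 1 and 0.16 in replicate 3. Its arrays stood at -0.16 and -0.91 in replicate 1 and at 0.40 and -0.089 in replicate 3, Cy3 array first. The mean of -0.19 ± 0.19 rests on the Cy5 array of replicate 1, without which it was -0.0012. RpL22-like, known as a paralog used in the male germline, had a mean of 0.14 ± 0.15, with pools at 0.065 and 0.21. RpS28b was nearest to 0, at 0.058 ± 0.15. Neither of the last genes departed from 0 by more than its standard error.

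Because the annotation places RpL32 at 18 spots, in 9 neighbouring pairs, its value can be set against the spread between spots. On the 4 arrays the standard deviation over the 18 spots was 0.61, 0.30, 0.43 and 0.44, in the order replicate 1 Cy3, replicate 1 Cy5, replicate 3 Cy3 and replicate 3 Cy5. Spots above 0 numbered 12, 14, 9 and 17 of 18 in that order. With each spot averaged over the 4 arrays first, the standard deviation was 0.24 and 16 of 18 spots lay above 0. Spots of 1 array share its RNA and are not replicates.

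Averaged over the 4 arrays, 8 of the 9 RpL32 pairs lay above 0, from -0.036 to 0.74. The highest pair stood at 1.71 on the Cy3 array of replicate 1, far from the other 8 pairs there, which ran from -0.31 to 0.71. Without that pair, chosen after its value was seen, the mean of RpL32 was 0.27, and that array's value went from 0.39 to 0.22. The annotation gives no accession for these 18 spots, so what was printed there is not known here.

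**Figure D2:**
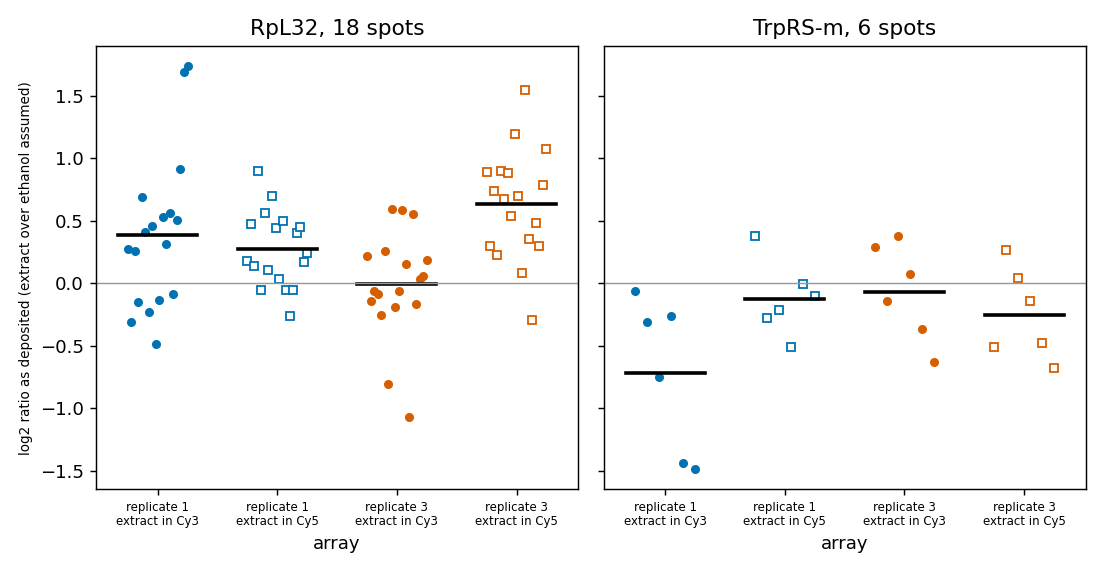
Log2 ratio as deposited (y axis) of single spots of RpL32 (18 spots) and TrpRS-m (6 spots) on each array (x axis), in order of spot number from left to right. Black bars are array means. RpL32 spots spread over more than 1 log2 unit on each array, and the 2 lowest TrpRS-m spots on the Cy3 array of replicate 1 are neighbours.

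Mitochondrial ribosomal proteins were represented by 3 large-subunit proteins, mRpL13, mRpL16 and mRpL54, and 2 of the 3 had means above 0 as deposited; turned, 0 of 3 did, with a median of -0.14. mRpL13 (CG10603) stood at 0.11 and 0.33 in replicate 1, and at 0.0055 and 0.22 in replicate 3, Cy3 array first. All 4 arrays were above 0, the Cy5 array the higher of each pool. Its mean was 0.17 ± 0.15 (limma, adjusted p = 0.835; n = 2).

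mRpL16 (CG3109) was below 0 on 3 arrays, at -0.38 on the Cy3 array of replicate 1 and at -0.38 and -0.30 in replicate 3. The Cy5 array of replicate 1 stood at 0.10, and the mean was -0.24 ± 0.15 (limma, adjusted p = 0.775; n = 2). The Cy3 arrays of both pools were nearly equal, and the turned value, at -0.14, was also below 0. mRpL54 was at 0.95 on the Cy5 array of replicate 1 and between -0.35 and -0.046 on the other 3. Its mean of 0.13 ± 0.18 was -0.12 without that array.

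The cytoplasmic and mitochondrial ribosomal proteins did not separate. Their medians were 0.098 and 0.13, and the ranges of the 6 and the 3 means overlapped (-0.22 to 0.32 and -0.24 to 0.17). The cytoplasmic minus the mitochondrial median was -0.13 in replicate 1 and 0.27 in replicate 3, with opposite signs, and 0.026 turned. On single arrays it was 0.31, -0.28, -4.2e-05 and 0.32, again in the order replicate 1 Cy3, replicate 1 Cy5, replicate 3 Cy3, replicate 3 Cy5.

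With synthetases and factors included, 23 cytoplasmic genes had a median of -0.025 (9 above 0, 14 below) and 5 mitochondrial genes one of 0.023 (3 above, 2 below). Turned, 13 of 23 and 1 of 5 lay above 0. The difference of these medians was -0.024 in replicate 1 and 0.11 in replicate 3, and 0.12 in the turned reading. No difference between the compartments held its sign in both pools. A median over 3 or 5 genes follows a single gene, and no test was run on these medians.

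**Figure D3:**
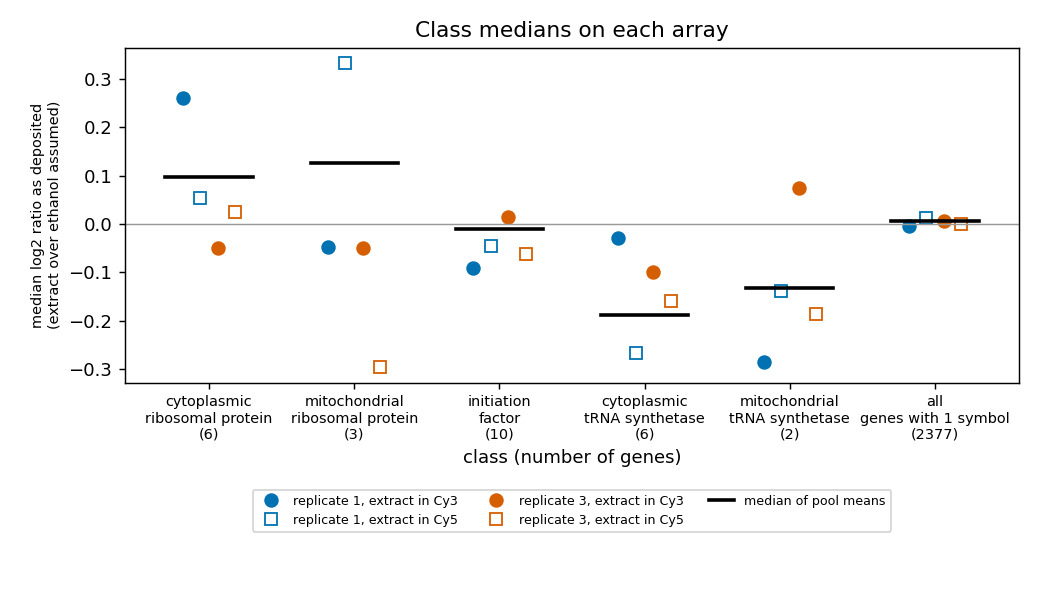
Median log2 ratio as deposited (y axis) of each class of translation gene and of all 2377 genes with 1 symbol (x axis, number of genes in parentheses) on the 4 arrays. Colours and marks stand for pool and dye as named in the key, and the black bar is the median of the pool means. The cytoplasmic tRNA synthetases are the class of at least 2 genes with all 4 array medians below 0, and the mitochondrial ribosomal proteins range from -0.30 to 0.33.

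The 10 initiation factors divided evenly, 5 above 0 and 5 below, with a median log2 ratio of -0.011. Of the genes around eIF2, the factor that brings the initiator tRNA, 2 encode subunits of its exchange factor eIF2B, which recycles eIF2 and is the step slowed when eIF2 is phosphorylated under stress. eIF2Balpha had a mean of 0.0031 ± 0.15 and eIF2Bepsilon, the catalytic subunit, one of -0.025 ± 0.15. Both pools of each lay within -0.044 and 0.0096. No other initiation factor had both pools this near 0.

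eIF2A and eIF2D, which can deliver initiator tRNA without eIF2, were the lowest and the third lowest of the class. eIF2A (CG7414) stood at -0.31 and -0.44 in replicate 1, and at 0.10 and -0.16 in replicate 3, Cy3 array first, with a mean of -0.20 ± 0.16 (limma, adjusted p = 0.802; n = 2). eIF2D had pools at -0.31 and -0.0018 and a mean of -0.16 ± 0.16. As deposited, replicate 1 carried the departure from 0 for both genes. The pool mean of replicate 3 lay near 0, with its 2 arrays on opposite sides of 0 for each gene. Turned, the means were 0.098 for eIF2A and 0.028 for eIF2D.

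The eIF3 complex, the scaffold on the small subunit, was named through 4 genes with means from -0.12 (eIF3m) to 0.15 (eIF3d2). eIF3d2 (CG4810), a relative of eIF3d1, was the highest initiation factor as deposited (-0.050 turned), at -0.013 and -0.084 in replicate 1 and 0.22 and 0.49 in replicate 3, Cy3 array first. Its pools lay on opposite sides of 0, and its standard error was 0.16. The pools of eIF3j were 0.27 and -0.23, those of eIF3f2, a relative of eIF3f1, -0.25 and 0.27, and both averaged near 0 (eIF3j 0.020, eIF3f2 0.0070). As for the duplicated ribosomal proteins, eIF3d1 and eIF3f1 were not among the genes with 1 symbol, and a probe may bind both relatives. The 2 spots of eIF3f2 differed by 1.40 on the Cy5 array of replicate 3, the widest gap among the 26 genes with 2 spots, where the median gap over genes and arrays was 0.16.

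eIF4E5, a relative of the cap-binding protein eIF4E1, was another gene with 1 array far above the rest, as in mRpL54. It stood at 0.93 on the Cy3 array of replicate 1 and between -0.32 and -0.011 on the other 3, so that the mean of 0.071 ± 0.17 became -0.24 without that array. Without the Cy5 array of replicate 3 the mean was also below 0, at -0.0074. eIF6, which keeps large subunits from joining small ones, stood at 0.10 and -0.41 in replicate 1 and at -0.40 and -0.097 in replicate 3, Cy3 array first. Its mean of -0.20 ± 0.15 (limma, adjusted p = 0.796; n = 2) was -0.071 without the Cy5 array of replicate 1. The release factor eRF1, which reads stop codons, was at -0.32 and -0.17 on the Cy3 arrays and at 0.084 and 0.066 on the Cy5 arrays of replicates 1 and 3. Its sign thus followed the dye in both pools, with a mean of -0.085 ± 0.15 as deposited and -0.16 ± 0.15 turned.

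Among the classes of more than 2 genes, the cytoplasmic tRNA synthetases had the most uniform sign. All 6 cytoplasmic genes had means below 0, from -0.25 to -0.012 with a median of -0.19, where 48.5% of genes with 1 symbol lay below 0 and their median was 0.0058. None of the 6 passed the test, and in the turned reading all 6 lay above 0, with a median of 0.060. By array the class median was -0.029 and -0.27 in replicate 1, and -0.098 and -0.16 in replicate 3, Cy3 array first. All 4 medians were below 0, those of the Cy5 arrays further than those of the Cy3 arrays in both pools. Without the Cy5 array of replicate 1 the class median was -0.051.

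Phenylalanyl-tRNA synthetase is built from alpha and beta subunits, and both genes were measured. alpha-PheRS (CG2263) stood at -0.10 and -0.43 in replicate 1, and at -0.26 and -0.20 in replicate 3, Cy3 array first. All 4 arrays were below 0, the pools were close at -0.27 and -0.23, and the mean was -0.25 ± 0.15 (limma, adjusted p = 0.76; n = 2). beta-PheRS (CG5706) had a like mean of -0.21 ± 0.15, with pools at -0.24 and -0.18. Its Cy3 array of replicate 1 lay above 0, at 0.055, and its other arrays ran from -0.53 to -0.11.

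CysRS (CG8431), which charges cysteine tRNA, was also below 0 on all 4 arrays, at -0.26 and -0.10 in replicate 1 and -0.092 and -0.31 in replicate 3. Its mean was -0.19 ± 0.15 (limma, adjusted p = 0.8; n = 2). LeuRS stood at -0.072 and -0.66 in replicate 1 and at -0.16 and 0.16 in replicate 3, Cy3 array first. It had a mean of -0.18 ± 0.16, which was -0.037 without the Cy5 array of replicate 1. IleRS (CG11471), the highest of the class, stood at 0.065 and -0.088 in replicate 1 and at 0.014 and -0.039 in replicate 3, Cy3 array first. It and TyrRS, with a mean of -0.023 ± 0.15, lay near 0 on each array, between -0.11 and 0.065, so 4 of the 6 genes carried the class median.

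Of the mitochondrial synthetases, TrpRS-m (CG7441), the enzyme for tryptophan, had the lowest mean of the 28 genes as deposited. Turned, at -0.10, it lay above eIF3f2, mRpL54 and eRF1, among others. It stood at -0.72 and -0.12 in replicate 1, and at -0.066 and -0.25 in replicate 3, Cy3 array first. All 4 were below 0, and the mean was -0.29 ± 0.15 (limma, adjusted p = 0.74; n = 2), rank 2300 of 2377 from the top. Its 6 spots form 3 neighbouring pairs with means over the arrays of -0.045, -0.17 and -0.65. The last pair gave -1.46 on the Cy3 array of replicate 1 and so carried much of the gene's value; without that array the mean was -0.14.

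LeuRS-m (CG7479), the mitochondrial counterpart of LeuRS, was at 0.15 and 0.22 on the Cy3 arrays and at -0.15 and -0.12 on the Cy5 arrays of replicates 1 and 3. As in eRF1, the sign followed the dye in both pools, here in the other direction. Its mean was 0.023 ± 0.15 as deposited and 0.16 ± 0.15 turned. In that reading 18 of the 28 genes changed sign, and none had an adjusted limma p under 0.962.

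**Figure D4:**
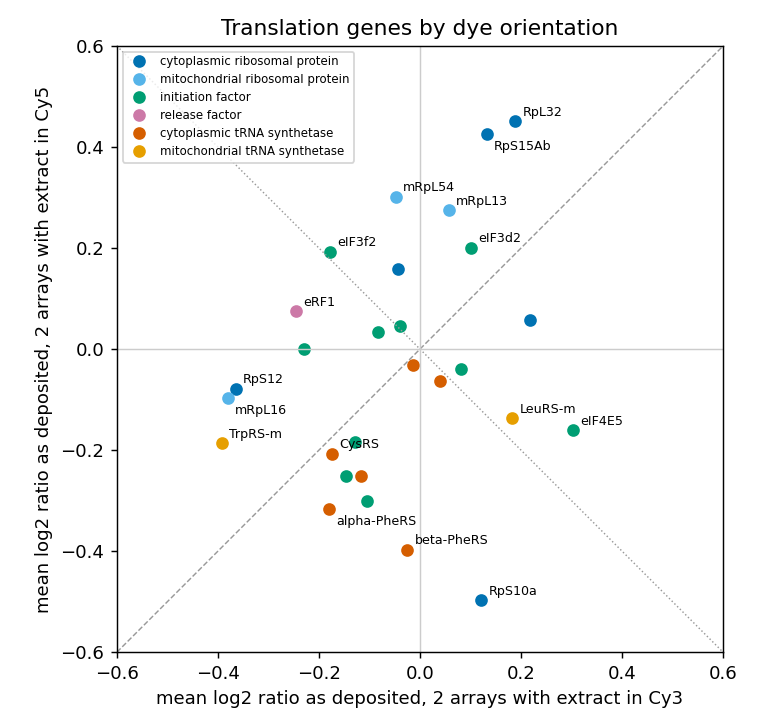
Mean log2 ratio as deposited of each of the 28 genes, by dye orientation. The x axis holds the 2 arrays with extract in Cy3 and the y axis the 2 with extract in Cy5. Colours stand for class, and some of the genes are named. The dashed line marks equal ratios in both orientations and the dotted line opposite ratios. The genes lie along neither line; the cytoplasmic synthetases sit below 0 on the y axis, and RpS10a and RpL32 are at the Cy5 extremes of -0.50 and 0.45.

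Agreement between arrays was weak for these genes as for the rest. Over the 28 genes, which share arrays and labelling, the Pearson correlation between the dye-swapped arrays was 0.136 in replicate 1 and 0.211 in replicate 3. Between the pools it was -0.181 with extract in Cy3 and -0.0283 with extract in Cy5. The corresponding values over 2377 genes were 0.0534, 0.104, 0.144 and 0.0741. These are descriptions across genes, which are not independent replicates.

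Genes of translation outside the naming rule were read from lists of 74 symbols, of which 15 were measured, and 0 of the 15 passed the test or had an unadjusted limma p under 0.05 as deposited. Of 23 listed genes of ribosome biogenesis, which make and fold ribosomal RNA in the nucleolus, 6 were measured. As deposited, 6 of the 6 lay below 0, with a median log2 ratio of -0.18, against 48.5% of genes with 1 symbol. Turned, 4 of the 6 were above 0. The lists were chosen with earlier results of these data known, and no test was run on this count. Nopp140, a nucleolar phosphoprotein, was below 0 on all 4 arrays, from -0.44 to -0.12, with a mean of -0.28 ± 0.15 (limma, adjusted p = 0.74; n = 2). Tif-IA, an initiation factor of RNA polymerase I, was also below 0 on all 4, with a mean of -0.24 ± 0.16. Of genes with 1 symbol, 7.99% lay below 0 on all 4 arrays. The other 4 had arrays on both sides of 0: Nnp-1 had a mean of -0.18, fibrillarin (Fib) of -0.17, the pseudouridine synthase Nop60B of -0.17 and Non1 of -0.028.

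Among 16 genes that control translation, 5 were measured, 2 above 0 and 3 below as deposited. PEK, the eIF2 kinase of the endoplasmic reticulum, had a mean of -0.066 ± 0.15, and crc, the fly ATF4 that acts downstream of it, one of -0.098 ± 0.15. Tsc1, which restrains the TOR kinase, stood at 0.025, the RNA-binding protein larp at 0.070 and Fmr1, the fly fragile X protein, at -0.21. As deposited, none departed from 0 by more than 2 standard errors. Turned, 1 of the 5 lay above 0, with a median of -0.072, and Fmr1 had a mean of -0.316 ± 0.157 (limma, adjusted p = 0.962).

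Of the cytoplasmic list, pelo, which rescues stalled ribosomes, had a mean of 0.32 ± 0.18, with 1.21 on the Cy5 array of replicate 1 and -0.11 to 0.093 on the other 3; its turned value was -0.33. bel, a DEAD-box helicase that aids initiation, was above 0 on all 4 arrays, from 0.13 to 0.67, with a mean of 0.28 ± 0.16 (limma, adjusted p = 0.744; n = 2). In the mitochondrial list, GatA, a subunit of the amidotransferase that completes glutaminyl-tRNA, had a mean of 0.19 ± 0.15 and bsf, a mitochondrial RNA-binding protein, one of -0.091 ± 0.18. The sign of bsf followed the dye in both pools, at -0.89 and -0.24 on the Cy3 arrays and 0.060 and 0.71 on the Cy5 arrays of replicates 1 and 3. Turned, its mean was -0.47 ± 0.15 (limma, unadjusted p = 0.0123, adjusted p = 0.962). In that reading bsf was the 1 gene of the 15 with an unadjusted limma p under 0.05. The background there was 4.75% of all features and 2.1% of genes with 1 symbol.

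The values are ratios without spot intensities, so the expression of ovary and testis markers could not be checked, and whether probes stood above background is unknown. The markers' part in the translation genes' ratios was not tested. Of 15 listed ovary and yolk genes 3 were measured, yl at -0.013, exu at 0.22 and pum at -0.28, with 0 past the test and 0 at an unadjusted limma p under 0.05. Of 8 testis and accessory gland genes 4 were measured, with means from -0.019 to 0.39; females lack these organs. Of these, ocn had the highest mean (limma, adjusted p = 0.661, unadjusted p = 0.0436; n = 2), above that of each of the 28 translation genes as deposited but not turned, where it was 0.072. As deposited it was the 1 of the 4 with an unadjusted limma p under 0.05. The background was 3.83% of genes with 1 symbol and 7.34% of all features.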

How the data were processed

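Total RNA of whole females was hybridised on 4 arrays (2 pools, each with dyes exchanged). The authors deposited 1 ratio per spot on a log scale, read here as log2, for 16896 spots an array. The sources used here do not give its base, direction or normalization. Array medians ran from -0.0022 to -0.00015 and each array was centred on its median. The number of arrays and pools limits the precision. The platform annotation gives 1 gene to 5666 spots, several to 152 and none to 11078; all 28 symbols matched RefSeq by gene number. Spots of a gene with 1 symbol were averaged per array, the 2 arrays of a pool were averaged, and 13607 features were tested against 0 (limma 3.58.1 in R 4.3.3, lmFit and eBayes, two-sided, Benjamini-Hochberg; 1 residual and 8.19 prior degrees of freedom). The steps were tested on simulated data, where, with 1 residual degree of freedom, the adjusted threshold in some draws let through more false calls than its nominal share; none of the 28 genes was called.

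All 28 genes are named; values on 4 arrays are given for those with 1 sign on all 4 and for the highest and lowest of each class, and for some others. Members and lists were chosen with earlier results of these data known. Alternatives turned the reverse-label arrays, scaled or did not centre arrays, used 4 arrays with a replicate block, took spot medians, fitted named genes alone, or left out arrays or pools. The replicate numbers stand for pools shared by dye-swapped arrays, with a block correlation of -0.24 over features. Promoters and proteins were not analysed here.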

Additional observations from a re-analysis of the deposited data

How the results depend on the processing

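No gene of the 28 passed the test under any alternative; their lowest adjusted limma p was 0.412. At an unadjusted limma p under 0.05 there were 0 of 28 as reported, against 999 of 13607 features. The count was 1 with the replicate block (1522 features), 2 with named genes alone (201 of 2377 genes) and 1 without the Cy3 array of replicate 3 (835 features). It was 0 otherwise. Scaling, the replicate block, spot medians, no centring and fitting named genes alone kept the sign of all 28. Turning the reverse-label arrays changed the sign of 18 genes. The means then below 0 were RpL32 -0.13, RpS15Ab -0.15, RpS28b -0.10, mRpL13 -0.11, mRpL54 -0.17, eIF3d2 -0.050, eIF3f2 -0.19 and eIF2Balpha -0.042. Those then above 0 were RpS10a 0.31, eIF2D 0.028, eIF6 0.053, eIF2A 0.098, IleRS 0.052, TyrRS 0.0089, LeuRS 0.068, CysRS 0.016, beta-PheRS 0.19 and alpha-PheRS 0.068. Turned medians were -0.12 for cytoplasmic and -0.14 for mitochondrial ribosomal proteins, -0.0073 for initiation factors, 0.060 for cytoplasmic and 0.028 for mitochondrial synthetases, 0.016 for all cytoplasmic and -0.11 for all mitochondrial genes, and the cytoplasmic minus mitochondrial median was 0.12 for all genes and 0.026 for ribosomal proteins. Scaling moved the initiation factor median to -0.012. Features past the test numbered 6; there were 0 with arrays turned, 17 with arrays scaled, 12 with the replicate block, and 0 to 11 without 1 array (0 without the Cy3 array of replicate 3). With named genes alone 10 of 2377 passed, against 1 of these in the fit of all features.

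Without 1 array, 11 genes changed sign and 17 kept it. Without 1 array or pool the ranges for the 11 were RpL22-like -0.013 to 0.29, RpS28b -0.0066 to 0.12, mRpL54 -0.20 to 0.45, eIF4E5 -0.24 to 0.38, eIF3j -0.23 to 0.27, eIF3f2 -0.25 to 0.27, eIF2Balpha -0.086 to 0.092, eIF2Bepsilon -0.071 to 0.021, eRF1 -0.19 to 0.016, IleRS -0.051 to 0.026 and LeuRS-m -0.061 to 0.11. Leaving out a pool also turned the sign of RpS15Ab (-0.099), RpS10a (0.16), RpS12 (0.012), eIF3d2 (-0.049) and TyrRS (0.031). Class medians ranged likewise, for cytoplasmic ribosomal proteins 0.042 to 0.15, mitochondrial ribosomal proteins -0.20 to 0.22, initiation factors -0.079 to -0.032, cytoplasmic synthetases -0.24 to -0.051, all cytoplasmic genes -0.065 to -0.026 and all mitochondrial genes -0.16 to 0.11. The cytoplasmic minus mitochondrial median ranged from -0.17 to 0.27 for ribosomal proteins and from -0.17 to 0.11 for all genes. The causes were not tested. Spot intensities were not used here, so how signal over background limits these ratios is not known.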

Other observations

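Of the 28 genes, 7 have a named relative in RefSeq's gene table under the same stem (RpL22-like, RpS10a, RpS15Ab, RpS28b, eIF3d2, eIF3f2 and eIF4E5). None of those relatives was among the genes with 1 symbol, and spots annotated to several genes were not searched. This grouping was made after the values were seen and has no test. Of the 7 means, 6 lay above 0, against 1225 of the 2377 genes with 1 symbol. The median log2 ratio of the 7 was 0.071. Both pools had the same sign for 1 of the 7 and 15 of the other 21, against 53.6% of genes with 1 symbol. The other 21 genes had a median of -0.12, with 15 below 0, against 48.5% of genes with 1 symbol. Turned, 3 of the 7 lay above 0, with a median of -0.050, and 11 of the other 21, with a median of 0.0089.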
